A study of Homo sapiens with 18 samples.

Results

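The 39 genes described here encode glucose carriers, the enzymes that turn glucose into lactate, the subunits of the hypoxia-inducible factors (HIF) and well known HIF targets. They were chosen by gene symbol from the 43236 symbols of the count table, and all 39 were found in it. Of these, 38 passed the filter on low counts and were tested among 16291 genes. The 39th, CA9, a carbonic anhydrase that is a classic marker of hypoxia, had 3 counts in all 18 libraries together.

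Glycolysis breaks glucose down to pyruvate, and lactate dehydrogenase can turn pyruvate into lactate, which leaves the cell through monocarboxylate carriers. HIF is a dimer of an oxygen-sensitive alpha subunit (HIF1A, or EPAS1, also called HIF-2 alpha) and the stable partner ARNT. In the presence of oxygen, prolyl hydroxylases of the EGLN family mark the alpha subunits for destruction through VHL, so that HIF activity is set largely at the protein level, which transcript counts do not measure. Many glycolytic genes are HIF targets, and lung cancers often have high glucose uptake.

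NCI-H1693 is an established cell line from a human lung cancer of the non-small cell kind and, per the labels, lacks SMARCA4. Cells were kept in RPMI-1640 with serum and given 50 nM PRT3789, a selective degrader of SMARCA2, or the solvent DMSO, and were harvested after 6, 48 or 72 h. Each of the 6 groups (DMSO and PRT3789 at each time) had 3 libraries of poly(A) RNA. All groups share the line and its SMARCA4 deficiency, so nothing here compares cells with and without SMARCA4. PRT3789 acts on a protein, and SMARCA2 transcript, at 39.4 ± 3.95 CPM under DMSO and 40.5 ± 5.32 in PRT3789 at 6 h and 47.2 ± 2.49 and 34.8 ± 2.34 at 72 h (SD over 3 libraries), does not check the treatment. The labels name no low-oxygen condition. They do not say whether the libraries of a group came from separate cultures, and the p-values then measure only the spread between these libraries, which may be technical.

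Library totals ran from 23154484 to 31094797 counts. That of DMSO 48 h replicate 3 was exactly 27000000, which the labels do not explain. All 7 epithelial markers fixed for a check of the label lay between 13.3 and 5311 CPM in every library, while 4 of 5 lung lineage markers (NKX2-1, SFTPB, SFTPC and SCGB1A1) were under 1 CPM in every library. Of 6 blood markers 5 were under 1 CPM everywhere, and CD68 reached 15.1 CPM. Of 3 endothelial markers 2 were under 1 CPM everywhere, and of 4 fibroblast markers LUM and COL1A1 lay above 10 CPM in every library. At 6 h the libraries differed from each other along transcript length. The Spearman correlation of length with how far a library lay from the 6 h mean, taken across genes that are no independent replicates, was 0.508 in DMSO replicate 1 and 0.281 and 0.458 in PRT3789 replicates 1 and 2, but -0.358, -0.462 and -0.483 in DMSO replicates 2 and 3 and PRT3789 replicate 3. Taken from the 48 h mean, it was 0.0315, -0.307 and -0.220 in DMSO and 0.208, 0.128 and 0.2045 in PRT3789 at 48 h. There every PRT3789 library lay above every DMSO library, so the trend ran along with treatment. Its part in the 48 h effects was not tested beyond the alternative with the length trend removed. At 72 h the groups overlapped. Levels below are in CPM, counts per scaled library total (TMM scaling) as edgeR gives them. They are listed for replicates 1, 2 and 3 in that order. Log2 fold changes (log2FC) are of PRT3789 against DMSO unless another comparison is named, with their standard error (SE), and a gene was called at an adjusted p under 0.05. Unless times are compared, rose and fell likewise mean higher or lower in PRT3789 than in DMSO of the same time, and not a course over time.

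After 48 and 72 h in PRT3789, transcripts of the glucose carrier SLC2A1 were 7.01- and 7.59-fold lower than in DMSO, and those of PKM, the last enzyme of glycolysis, were 1.65- and 1.79-fold lower. Transcripts of EPAS1, the HIF-2 alpha subunit, were 4.14- and 3.98-fold higher, and those of HIF1A were 1.5- and 1.74-fold lower. The HIF targets split, with ADM, which encodes the peptide adrenomedullin, 4.13- and 5.6-fold higher and NDRG1 2.51- and 2.76-fold lower (3 libraries per group; values by library follow).

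The members did not share one direction. At 48 h, 11 of the 38 tested members were higher and 12 lower than in DMSO, where 21.2% and 20.9% of all tested genes were higher and lower. At 72 h, 8 were higher and 18 lower, where 21.3% and 22.0% of all tested genes were. The median log2FC of the 38 members was -0.15 at 48 h and -0.27 at 72 h, against 0.01 at both times over all tested genes. Called in the same direction at both times were 8 members that rose (PFKL, PFKFB4, PGK1, ADM, ANKRD37, KDM3A, P4HA1 and EPAS1) and 12 that fell (SLC2A1, PFKP, GAPDH, ENO1, PKM, LDHA, LDHB, SLC16A3, VEGFA, NDRG1, P4HA2 and HIF1A). Members called at 48 h and not at 72 h were GPI, ALDOA and EGLN1, and those called at 72 h and not at 48 h were SLC2A3, HK1, PGAM1, PDK1, CA12 and EGLN3. For none of the 38 was the change of the effect from 48 to 72 h itself called in DESeq2 or in edgeR with all libraries in one fit (0% of all tested genes were, in either direction, in edgeR). In edgeR 5 of the 38 had an unadjusted p under 0.05, as did 1475 of all 16291 tested genes. With the libraries of these times fitted apart, edgeR called SLC2A3 (log2FC -0.35, adjusted p = 0.0209) and ADM (0.44, adjusted p = 0.0197). Each role held calls in both directions. Of the 23 genes from glucose uptake to lactate, 5 were higher and 8 lower at 48 h. Those 5 are 21.7%, near the 21.2% of all tested genes. At 72 h 3 of the 23 were higher and 12 lower. Of the 15 tested HIF subunits, regulators and targets, 6 were higher and 4 lower at 48 h and 5 and 6 at 72 h. CPM are shares of a library, so a change in one transcript and a change in the total RNA of the cells cannot be told apart, nor can fewer cells of a type and less RNA per cell.

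**Figure D1:**
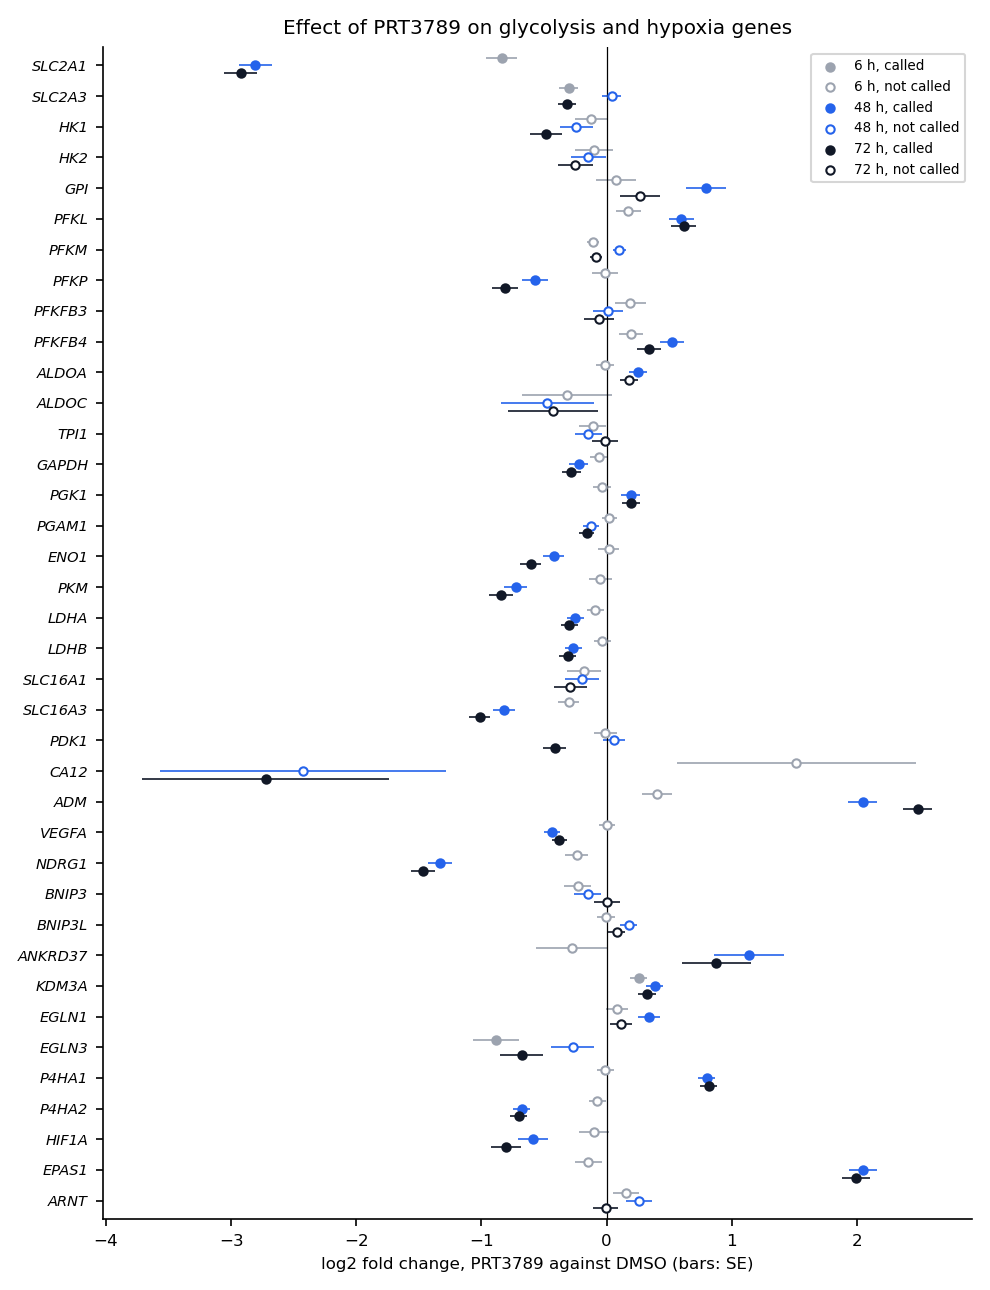
Log2 fold change of PRT3789 against DMSO (x axis; bars are the SE) for the 38 tested members (y axis) at 6, 48 and 72 h, with filled points for called genes. SLC2A1 lies at -2.81 and -2.92 at 48 and 72 h, and ADM and EPAS1 lie near or above 2 at both times.

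Promoters are shown because members of one pathway moved in opposite directions. HIF dimers bind a short core that reads ACGTG or GCGTG, and both forms were searched on both strands (CACGT and CACGC on the strand shown) in the 250 bases before each gene's start in the RefSeq promoter table of GRCh38.p14. The table held 34 of the 39 members, and SLC2A3, SLC16A1, VEGFA, NDRG1 and BNIP3L were not in it. Of the 22 members with a single start, 15 (68.2%) held a match, as did 9333 of 22114 (42.2%) of all genes with a single start. All 7 such members that rose at both times held one, and of 6 that fell at both times 2 did (ENO1 and GAPDH). So did 2 of 3 called at neither time, 3 of 5 called at one time, and CA9, which was not tested. These sets are small, and no difference between them was tested. Calls of PGK1 among the risers and of GAPDH and LDHB among the fallers ended under some alternatives, as given below. Of the 12 members with several starts, all held a match before at least one, as did 3612 of 5191 (69.6%) of all such genes. They include 4 that fell at both times (PFKP, LDHA, SLC16A3 and HIF1A) and 1 that rose (KDM3A). A match is a run of letters and not a measured binding site. The 200 bases before the start, 5′ to 3′ on the strand of the gene, follow for 4 members that rose at both times (EPAS1, ADM, ANKRD37 and P4HA1) and 3 that fell (ENO1, SLC2A1 and PKM), with matches in capitals. The starts are those of RefSeq, and for 6 of the 7 genes, all but ADM, they lie inside the gene span in GENCODE, whose coordinates are given below. In ANKRD37 the run CACGTG, which is also the E-box of bHLH factors such as MYC, holds a match on each strand.
EPAS1 (chr2:46297207-46297406, plus strand): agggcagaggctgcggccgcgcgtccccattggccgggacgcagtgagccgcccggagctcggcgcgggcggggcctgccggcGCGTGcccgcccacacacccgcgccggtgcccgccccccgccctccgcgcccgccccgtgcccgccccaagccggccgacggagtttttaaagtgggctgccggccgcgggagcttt
ADM (chr11:10304873-10305072, plus strand): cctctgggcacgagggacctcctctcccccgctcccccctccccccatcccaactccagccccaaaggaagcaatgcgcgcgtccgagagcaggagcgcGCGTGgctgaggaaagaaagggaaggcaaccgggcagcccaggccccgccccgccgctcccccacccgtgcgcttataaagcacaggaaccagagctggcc
ANKRD37 (chr4:185396641-185396840, plus strand): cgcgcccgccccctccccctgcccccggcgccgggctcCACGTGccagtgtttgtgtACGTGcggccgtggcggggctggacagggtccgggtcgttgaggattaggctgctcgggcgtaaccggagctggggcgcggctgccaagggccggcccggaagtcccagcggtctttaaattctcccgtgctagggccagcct
P4HA1 (chr10:73096867-73097066, minus strand): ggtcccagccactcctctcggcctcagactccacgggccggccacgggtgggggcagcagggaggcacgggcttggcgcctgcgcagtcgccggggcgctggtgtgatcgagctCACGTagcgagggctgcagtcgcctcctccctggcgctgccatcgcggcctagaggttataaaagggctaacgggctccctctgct
ENO1 (chr1:8878687-8878886, minus strand): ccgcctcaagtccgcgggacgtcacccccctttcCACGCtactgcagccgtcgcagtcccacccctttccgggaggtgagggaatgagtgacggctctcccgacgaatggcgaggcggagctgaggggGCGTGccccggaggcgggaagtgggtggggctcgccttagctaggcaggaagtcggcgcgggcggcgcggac
SLC2A1 (chr1:42958869-42959068, minus strand): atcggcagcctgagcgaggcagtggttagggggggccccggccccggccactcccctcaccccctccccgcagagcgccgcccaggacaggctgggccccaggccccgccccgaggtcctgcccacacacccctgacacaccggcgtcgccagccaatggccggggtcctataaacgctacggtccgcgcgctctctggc
PKM (chr15:72231191-72231390, minus strand): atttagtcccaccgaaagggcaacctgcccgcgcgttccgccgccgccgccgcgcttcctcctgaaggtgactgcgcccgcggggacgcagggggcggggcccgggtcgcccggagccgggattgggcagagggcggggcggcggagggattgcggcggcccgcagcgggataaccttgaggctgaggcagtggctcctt
The capitals stand at 117 bases before the start in EPAS1, 101 in ADM, 162 and 143 in ANKRD37, 86 in P4HA1, and 166 and 72 in ENO1, counted to the first base of the match. SLC2A1 and PKM, which fell the most among the carriers and the lower glycolytic enzymes, held no match in this window.

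The HIF alpha subunits moved apart. EPAS1 (chromosome 2, 46293667 to 46386697 in GRCh38), the HIF-2 alpha subunit, was at 245, 221 and 213 CPM under DMSO and 934, 925 and 952 under PRT3789 at 48 h. It rose 4.14-fold (log2FC 2.05 ± 0.11 SE, adjusted p = 1.25e-10), and its libraries lay far apart from those of DMSO. At 72 h the values were 249, 255 and 272 under DMSO and 1016, 1056 and 1019 under PRT3789, a 3.98-fold rise (log2FC 1.99 ± 0.11 SE, adjusted p = 1.44e-10). At 6 h the groups overlapped, with 133, 106 and 101 under DMSO and 105, 117 and 84.8 under PRT3789 (log2FC -0.15 ± 0.11 SE, adjusted p = 0.621). The change of its effect from 6 to 48 h was the largest of the 16 that were called (log2FC 2.20 ± 0.15 SE, adjusted p = 1.88e-08).

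HIF1A (chromosome 14, 61695513 to 61748259), the HIF-1 alpha subunit, went the other way. Its level was 117, 97.8 and 111 CPM under DMSO and 72.5, 70.3 and 74.1 under PRT3789 at 48 h (log2FC -0.59 ± 0.12 SE, adjusted p = 0.000851). At 72 h it was 113, 112 and 118 and 69, 67.9 and 60 (log2FC -0.80 ± 0.12 SE, adjusted p = 3.62e-05), a 1.74-fold fall. The libraries of DMSO and PRT3789 did not overlap at either time, while at 6 h they did (120.0, 93.5 and 83.1 and 100.2, 100.5 and 75.6, adjusted p = 0.781). The change of effect from 6 to 48 h was not called for HIF1A (log2FC -0.48 ± 0.17 SE, adjusted p = 0.0578), but was in 8 alternatives, among them DESeq2 (log2FC -0.51, adjusted p = 0.0282) and without DMSO 6 h replicate 1 (-0.68, adjusted p = 0.00209).

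ARNT (chromosome 1, 150809713 to 150876708), the partner that both alpha subunits need, was not called at any of the 3 times. At 48 h it was at 69.5, 60.1 and 63.4 CPM under DMSO and 80.3, 75.7 and 75.1 under PRT3789 (log2FC 0.26 ± 0.10 SE, adjusted p = 0.0531), where the libraries did not overlap. It was called there in 6 alternatives, among them limma-voom (adjusted p = 0.0495), total counts (0.0428) and the 48 h libraries fitted apart (0.0143). At 72 h it was at 68.3, 66.9 and 73.8 and 72.3, 70.7 and 64.9 (log2FC -0.01 ± 0.10 SE, adjusted p = 0.958), and the libraries overlapped. Of the counts of the alpha subunits HIF1A and EPAS1, divided by transcript length, HIF1A held 53.2% ± 1.26 under DMSO and 54% ± 1.31 under PRT3789 at 6 h (SD over 3 libraries). Its share was 38.5% ± 1.97 against 9.16% ± 0.108 at 48 h and 36.6% ± 0.59 against 7.68% ± 0.507 at 72 h. The share thus fell with time in DMSO too, and was lower in every PRT3789 library of 48 and 72 h than in any DMSO library.

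**Figure D2:**
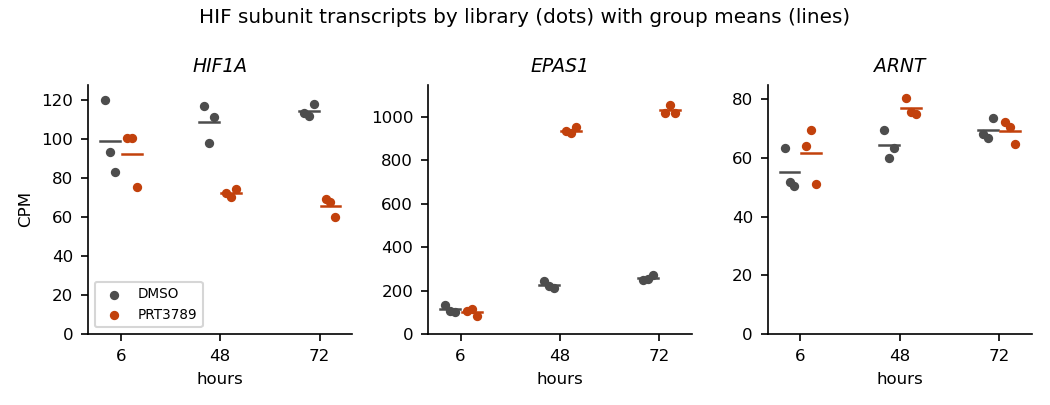
CPM (y axis, linear, from 0) of the HIF subunits at 6, 48 and 72 h (x axis) in DMSO and PRT3789; dots are libraries and lines are group means. EPAS1 in PRT3789 lies between 925 and 1056 CPM at 48 and 72 h, and HIF1A in PRT3789 lies below every DMSO library of the same time there.

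Of the prolyl hydroxylases that sense oxygen for HIF, EGLN1 was called higher at 48 h and EGLN3 lower at 6 and 72 h. EGLN1 (chromosome 1, 231363751 to 231422287), the main HIF prolyl hydroxylase PHD2, was at 42.3, 35.2 and 41.9 CPM under DMSO and 49, 50.8 and 50.7 under PRT3789 at 48 h (log2FC 0.34 ± 0.09 SE, adjusted p = 0.00517). It was not called at 72 h, at 47.5, 45.2 and 46.8 against 51.4, 50 and 49.7 (log2FC 0.11, adjusted p = 0.315), although those libraries did not overlap either. EGLN3 (chromosome 14, 33924227 to 34462774), the paralog PHD3 and itself a HIF target, was low. At 6 h it was at 5.02, 4.94 and 4.02 CPM under DMSO and 3.12, 2.72 and 1.74 under PRT3789 (log2FC -0.88 ± 0.19 SE, adjusted p = 0.00826), without overlap. It was not called at 48 h, with 6.33, 4.85 and 6.28 and 4.66, 5.01 and 4.8 (adjusted p = 0.223), and fell at 72 h, with 6.4, 6.5 and 5.78 and 4.68, 3.44 and 3.55 (log2FC -0.68 ± 0.17 SE, adjusted p = 0.00394).

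Collagen prolyl 4-hydroxylases are HIF targets that modify collagen in the endoplasmic reticulum, and the genes of their alpha subunits moved in opposite directions. P4HA1 (chromosome 10, 73007217 to 73096974) was at 91.1, 88.8 and 98.8 CPM under DMSO and 159, 169.8 and 156 under PRT3789 at 48 h (log2FC 0.80 ± 0.07 SE, adjusted p = 2.96e-08), and at 103, 98.4 and 102 and 179, 178 and 176 at 72 h (log2FC 0.82 ± 0.07 SE, adjusted p = 1.9e-08). P4HA2 (chromosome 5, 132190147 to 132295315) fell, from a mean of 99 ± 5.52 to 61.9 ± 1.34 CPM at 48 h (log2FC -0.68 ± 0.07 SE, adjusted p = 2.66e-07), then from 104 ± 1.65 to 64 ± 0.295 at 72 h (SD over 3 libraries; log2FC -0.70 ± 0.07 SE, adjusted p = 1.38e-07). Neither passed the test at 6 h (log2FC -0.01 and -0.07, adjusted p 0.966 and 0.702). Per transcript length, P4HA1 held 60.9% ± 2.24 of the counts of both subunits in DMSO and 81.2% ± 0.873 under PRT3789 at 48 h, and 61.6% ± 0.785 and 82.1% ± 0.209 at 72 h.

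Secreted HIF targets did not move together either. ADM (chromosome 11, 10305073 to 10307397), the vasodilator peptide adrenomedullin, was at 28.5, 32.5 and 33.6 CPM under DMSO and 129, 129 and 132 under PRT3789 at 48 h, a 4.13-fold rise (log2FC 2.05 ± 0.12 SE, adjusted p = 3.24e-10). At 72 h it was at 37.3, 36.1 and 36.3 and 197, 201 and 217, a 5.6-fold rise (log2FC 2.49 ± 0.12 SE, adjusted p = 2.4e-11). All PRT3789 libraries of these times were above all DMSO libraries. At 6 h the values of 15.1, 21.3 and 20.1 and 23.3, 21.5 and 29.9 did not overlap but did not pass the test (adjusted p = 0.0747). They did pass in several alternatives, among them DESeq2 (log2FC 0.41, adjusted p = 0.0253) and edgeR with the length trend removed (0.44, adjusted p = 0.000281). VEGFA (chromosome 6, 43770184 to 43786487), the main signal for blood vessel growth, was lower in PRT3789 than in DMSO at 48 h, at 32.6 ± 1.58 against 44.1 ± 2.39 CPM (SD over 3 libraries, log2FC -0.43 ± 0.06 SE, adjusted p = 2.41e-05). At 72 h it was at 34.7 ± 0.626 against 45.1 ± 1.22 (log2FC -0.38 ± 0.06 SE, adjusted p = 8.83e-05). At 6 h it was at 30.8 ± 1.46 in PRT3789 and 30.7 ± 0.685 in DMSO. Between 6 and 48 h its level thus rose in DMSO and stayed near the 6 h level in PRT3789.

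Among intracellular HIF targets, NDRG1 (chromosome 8, 133237175 to 133302022), a stress-response protein, had the largest fall. It was at 20.8, 20.6 and 19.1 CPM under DMSO and 7.61, 8.16 and 8.28 under PRT3789 at 48 h (log2FC -1.33 ± 0.09 SE, adjusted p = 4.61e-09), and at 17.9, 18.9 and 18.8 and 6.83, 7.35 and 5.95 at 72 h (log2FC -1.46 ± 0.10 SE, adjusted p = 1.22e-09). It was 2.51- and 2.76-fold lower, without overlap of libraries. ANKRD37 (chromosome 4, 185396021 to 185400628), a small ankyrin repeat protein, rose from 2.91, 4.79 and 3.67 to 7.86, 8.57 and 8.68 CPM at 48 h (log2FC 1.14 ± 0.28 SE, adjusted p = 0.00333) and from 4.36, 4.37 and 3.19 to 6.69, 7.76 and 7.44 at 72 h (log2FC 0.88 ± 0.28 SE, adjusted p = 0.0164). At 6 h its libraries were at 2.78, 6.07 and 5.91 under DMSO and 3.5, 2.61 and 6.02 under PRT3789, where the high values are those of the libraries with a negative correlation to length and the transcript is short (784 bases), and the part of that trend in its values was not tested. Without DMSO 72 h replicate 3 the 72 h call of ANKRD37 ended (log2FC 0.74, adjusted p = 0.071).

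KDM3A (chromosome 2, 86440647 to 86492716), a histone H3K9 demethylase, rose by smaller amounts, from 58.9 ± 2.85 to 76.9 ± 4.36 CPM at 48 h (log2FC 0.39 ± 0.07 SE, adjusted p = 0.000217), then from 55.4 ± 0.682 to 69.3 ± 3.28 at 72 h (SD over 3 libraries; log2FC 0.32 ± 0.07 SE, adjusted p = 0.000933). BNIP3 and BNIP3L, receptors for the removal of mitochondria, did not pass at any of the 3 times, with a log2FC of -0.15 and 0.00 for BNIP3 and 0.18 and 0.08 for BNIP3L at 48 and 72 h (adjusted p 0.274, 0.984, 0.055 and 0.386). CA12 (chromosome 15, 63321378 to 63381846), a carbonic anhydrase at the cell surface, had few counts, with 0.176, 0.635 and 0.631 CPM under DMSO and 0, 0.17 and 0.0348 under PRT3789 at 72 h (log2FC -2.72 ± 0.99 SE, adjusted p = 0.0333). Its call rests on few counts and ended without DMSO 72 h replicates 2 or 3 or PRT3789 72 h replicates 1 or 3 (adjusted p 0.0939 to 0.115).

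**Figure D3:**
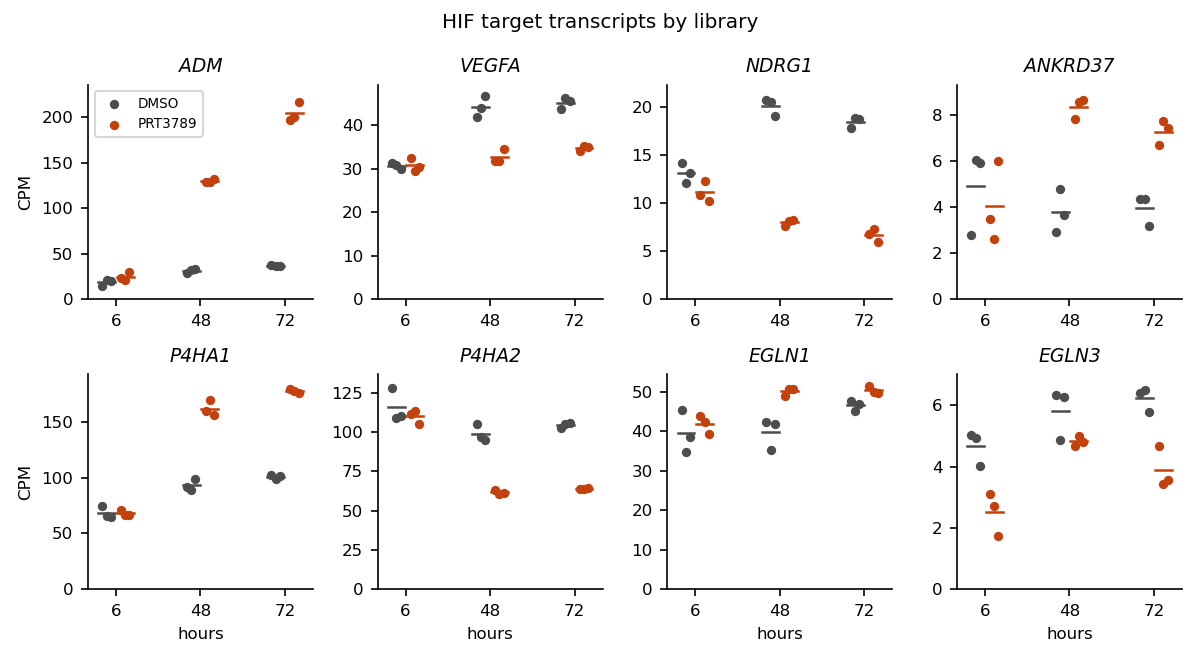
CPM (y axis, linear, from 0) of 8 HIF targets at 6, 48 and 72 h (x axis) in DMSO and PRT3789; dots are libraries and lines are group means. ADM, ANKRD37 and P4HA1 lie above DMSO at 48 and 72 h, and VEGFA, NDRG1 and P4HA2 lie below it.

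Glucose enters through SLC2A1 and SLC2A3, and the former had the lowest log2FC of the 38 tested members at 48 and 72 h. SLC2A1 (chromosome 1, 42925353 to 42958893), the carrier GLUT1, was at 282, 262 and 237 CPM under DMSO and 36.6, 39.7 and 35.2 under PRT3789 at 48 h, 7.01-fold lower (log2FC -2.81 ± 0.13 SE, adjusted p = 2.13e-11). At 72 h it was at 317, 292 and 297 and 38.8, 38 and 42.6, 7.59-fold lower (log2FC -2.92 ± 0.13 SE, adjusted p = 1.02e-11). Every PRT3789 library was under every DMSO library of its time by a wide margin. At 6 h it was already lower, at 172, 130.2 and 128 under DMSO and 85.2, 91.6 and 63.9 under PRT3789 (log2FC -0.84 ± 0.12 SE, adjusted p = 0.000369), and the change of effect from 6 to 48 h was itself called (log2FC -1.97 ± 0.18 SE, adjusted p = 4.04e-07).

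SLC2A3 (chromosome 12, 7919230 to 8019007), the carrier GLUT3, was not called at 48 h. It was at 444 ± 13.3 CPM under DMSO and 457 ± 9.11 under PRT3789 at 48 h (SD over 3 libraries; log2FC 0.04 ± 0.07 SE, adjusted p = 0.691), and fell modestly at 72 h, from 510.4 ± 12.4 to 409.7 ± 17.8 (log2FC -0.32 ± 0.07 SE, adjusted p = 0.00216). SLC2A14, its near-identical copy, held at most 0.749% of the summed counts of both in any library. Per transcript length, SLC2A1 held 39.8% ± 1.57 of the counts of these carriers in DMSO and 8.42% ± 0.341 under PRT3789 at 48 h, and 40.1% ± 0.681 and 9.91% ± 0.79 at 72 h.

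Hexokinases trap glucose in the cell. HK1 (chromosome 10, 69269984 to 69401884) was not called at 48 h, with 156, 141 and 136 CPM under DMSO and 127, 118 and 121 under PRT3789 (log2FC -0.24, adjusted p = 0.146), and fell at 72 h, with 167, 167 and 169.9 and 126, 119 and 115 (log2FC -0.49 ± 0.13 SE, adjusted p = 0.00551). HK2, the inducible form and a HIF target, was not called at any time (log2FC -0.14 and -0.25 at 48 and 72 h, adjusted p 0.434 and 0.162). GPI (chromosome 19, 34359480 to 34402413), which makes fructose 6-phosphate, rose at 48 h, from 235, 179 and 163 to 347, 314 and 339 CPM (log2FC 0.80 ± 0.16 SE, adjusted p = 0.00071). At 72 h it was not called, at 243, 237 and 250.2 and 295, 296 and 288 (log2FC 0.27, adjusted p = 0.19), though the libraries did not overlap, and the change between these times did not pass the test (adjusted p = 0.516).

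Phosphofructokinase commits sugar to glycolysis, and the genes of its liver and platelet forms went in opposite directions. PFKL (chromosome 21, 44300051 to 44327376), the liver form, was at 162, 159 and 137 CPM under DMSO and 232, 224 and 236 under PRT3789 at 48 h (log2FC 0.60 ± 0.10 SE, adjusted p = 0.000104), and at 172, 169 and 165 and 256, 256 and 263 at 72 h (log2FC 0.62 ± 0.10 SE, adjusted p = 6.45e-05). PFKP (chromosome 10, 3066333 to 3137718), the platelet form, was at 79.9, 83.9 and 67.5 and 53.6, 50.5 and 51.2 at 48 h (log2FC -0.58 ± 0.10 SE, adjusted p = 0.000241), and at 92.1, 90 and 93.6 and 55, 50.5 and 51.4 at 72 h (log2FC -0.81 ± 0.10 SE, adjusted p = 5.13e-06). For both genes the groups did not overlap at these times. PFKM, the muscle form, was not called (log2FC 0.10 and -0.08, adjusted p 0.115 and 0.2). Per transcript length, PFKP held 22.3% ± 0.371 of the counts of the 3 genes in DMSO and 11.8% ± 0.544 under PRT3789 at 72 h, while PFKL held 36.9% ± 0.829 and 52.5% ± 0.563 (SD over 3 libraries).

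The bifunctional enzymes that set fructose 2,6-bisphosphate, an activator of phosphofructokinase, are PFKFB3 and PFKFB4 among the members. PFKFB4 (chromosome 3, 48517684 to 48562015) rose from 13.3, 11.9 and 12.6 to 18.2, 17.6 and 18.5 CPM at 48 h (log2FC 0.52 ± 0.10 SE, adjusted p = 0.000281) and from 12.7, 11.8 and 14.4 to 17.5, 15.5 and 16.2 at 72 h (log2FC 0.34 ± 0.10 SE, adjusted p = 0.00816). Its groups did not overlap. PFKFB3 did not pass at any of the 3 times, with a log2FC of 0.01 and -0.06 (adjusted p 0.94 and 0.721).

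Of the 8 genes of lower glycolysis, 3 were lower and 2 higher at 48 h, by less than 2-fold. At 72 h 4 were lower and 1 higher, also by less than 2-fold. Over all tested genes 20.9% were lower and 21.2% higher at 48 h, and 22.0% and 21.3% at 72 h. The 2 higher at 48 h are 25%, near that share. PKM (chromosome 15, 72199029 to 72231819), pyruvate kinase of most tissues and of tumours, fell the most. It was at 2689, 2498 and 2503 CPM under DMSO and 1572, 1492 and 1586 under PRT3789 at 48 h (log2FC -0.73 ± 0.09 SE, adjusted p = 5.73e-06), and at 2801, 2597 and 2645 and 1535, 1465 and 1482 at 72 h (log2FC -0.84 ± 0.09 SE, adjusted p = 8.55e-07), without overlap. Counts per gene do not tell its M1 and M2 isoforms apart. ENO1, enolase, fell from 2654 ± 95.9 to 1981 ± 21 CPM at 48 h, then from 2963 ± 124 to 1947 ± 37.4 at 72 h (SD over 3 libraries; log2FC -0.42 and -0.61, adjusted p 0.000608 and 1.37e-05).

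GAPDH, which makes 1,3-bisphosphoglycerate and is often used as a reference transcript, fell slightly (log2FC -0.22 and -0.28, adjusted p 0.0232 and 0.00521). Its 48 h call ended with the length trend removed (adjusted p = 0.133), and when DMSO 48 h replicate 2 (0.0622) or PRT3789 48 h replicate 1 (0.0511) was left out. PGK1, phosphoglycerate kinase, was slightly higher at both times (log2FC 0.19 and 0.20, adjusted p 0.0443 and 0.0376). Its call ended in several alternatives, among them without DMSO 48 h replicate 1 (log2FC 0.12, adjusted p = 0.207) and without DMSO 72 h replicate 3 (0.18, adjusted p = 0.1).

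Aldolase ALDOA was called higher at 48 h only (log2FC 0.25, adjusted p = 0.00849; at 72 h 0.18, adjusted p = 0.0515), a call that ended without PRT3789 48 h replicate 1 (adjusted p = 0.0519). PGAM1, phosphoglycerate mutase, was called lower at 72 h (log2FC -0.16, adjusted p = 0.0448), and its call ended with any one of the 72 h libraries left out (adjusted p 0.0599 to 0.153). TPI1 and ALDOC were not called at 48 or 72 h. The summed level of the 16 members that are glycolytic enzymes or lactate dehydrogenases was 14033 ± 210 CPM under DMSO and 11924 ± 38.1 in PRT3789 at 48 h and 13991 ± 549 and 11120 ± 149 at 72 h, against 15271 ± 504 and 14881 ± 351 at 6 h (SD over 3 libraries).

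Of the 5 genes of lactate and pyruvate handling, 3 were lower at 48 h and 4 at 72 h, and 0 were higher. Over all tested genes 20.9% were lower and 21.2% higher at 48 h, and 22.0% and 21.3% at 72 h. LDHA and LDHB, the muscle and heart forms of lactate dehydrogenase, fell by similar amounts (log2FC -0.25 and -0.30 for LDHA, -0.27 and -0.31 for LDHB, adjusted p 0.00704, 0.00181, 0.0044 and 0.00127). The 48 h call of LDHB ended with the length trend removed (log2FC -0.15, adjusted p = 0.105). The share of LDHA per transcript length was 60.4% ± 1.03 under DMSO and 60.7% ± 0.83 under PRT3789 at 48 h, which differ by less than the spread between libraries. SLC16A3 (chromosome 17, 82217934 to 82261129), the lactate exporter MCT4, was at 173, 176 and 141 CPM under DMSO and 89.2, 92.9 and 95.4 under PRT3789 at 48 h (log2FC -0.82 ± 0.08 SE, adjusted p = 4.51e-07), and at 178, 169 and 172 and 89, 87.4 and 80.8 at 72 h (log2FC -1.01 ± 0.08 SE, adjusted p = 2.76e-08), without overlap. At 6 h it was at 97.2, 95.3 and 94.3 under DMSO and 77.6, 85.5 and 69.7 under PRT3789, also without overlap. It was not called there (log2FC -0.30 ± 0.08 SE, adjusted p = 0.0525), but was in several alternatives, among them DESeq2 (adjusted p = 0.0228) and edgeR with the length trend removed (0.0469). SLC16A1, the carrier MCT1, was not called (log2FC -0.20 and -0.29, adjusted p 0.249 and 0.0843). PDK1, a kinase that shuts pyruvate out of the citric acid cycle, was not called at 48 h (log2FC 0.06, adjusted p = 0.619) and fell at 72 h, from 18.7 ± 0.873 to 14.1 ± 0.244 CPM (SD over 3 libraries; log2FC -0.42 ± 0.09 SE, adjusted p = 0.00103).

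**Figure D4:**
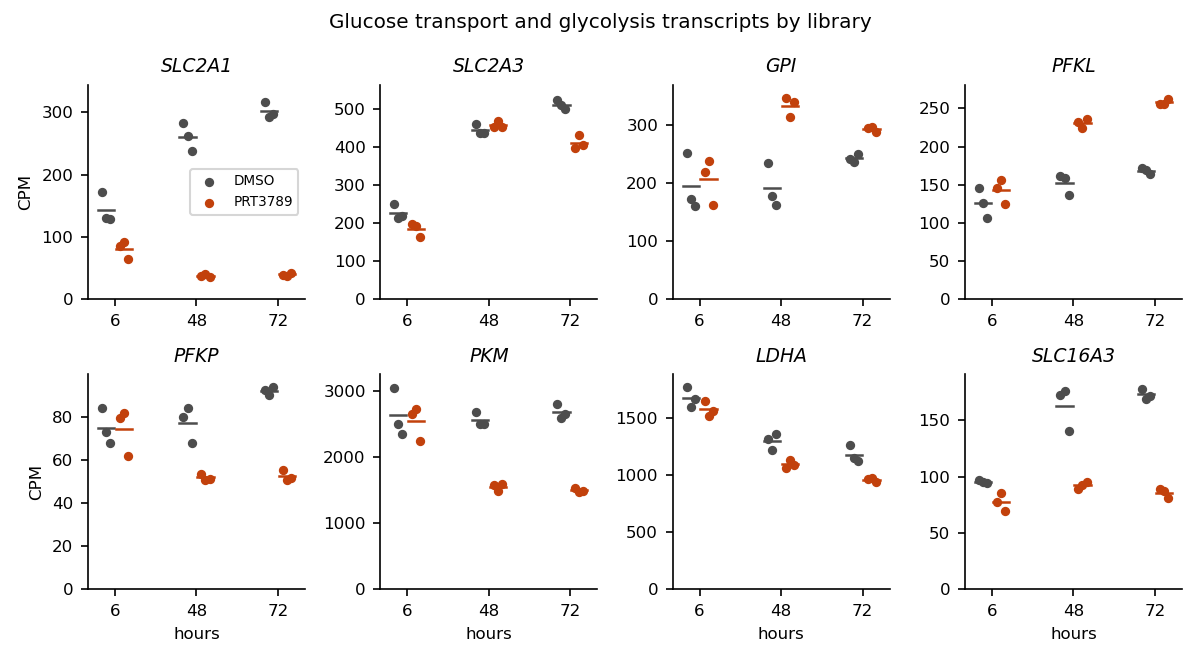
CPM (y axis, linear, from 0) of 8 genes of glucose uptake, glycolysis and lactate export at 6, 48 and 72 h (x axis) in DMSO and PRT3789; dots are libraries and lines are group means. SLC2A1 falls to between 35.2 and 42.6 CPM in PRT3789 at 48 and 72 h, PFKL lies above DMSO and PFKP, PKM, LDHA and SLC16A3 lie below it at these times.

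**Figure D5:**
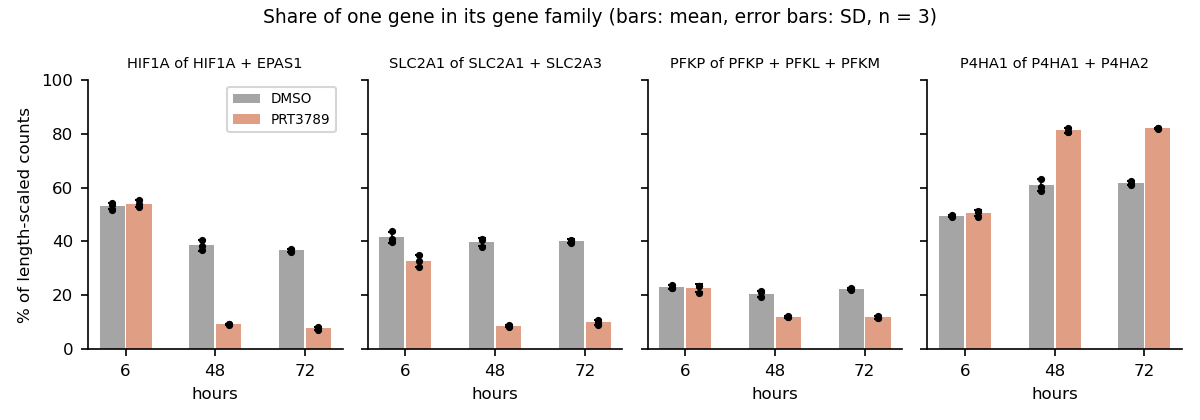
Share of one gene in the length-scaled counts of its gene family (y axis, percent) at 6, 48 and 72 h (x axis) in DMSO and PRT3789; bars are means, error bars the SD over 3 libraries and dots the libraries. The shares of HIF1A, SLC2A1 and PFKP are lower and that of P4HA1 is higher in PRT3789 than in DMSO at 48 and 72 h.

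At 6 h few members had moved. One member was higher and 3 were lower of 38, where 1.28% and 3.04% of all tested genes were, with SLC2A1 and EGLN3 as given above. SLC2A3 fell from 249.6, 213 and 219 to 197, 192 and 164 CPM (log2FC -0.30 ± 0.08 SE, adjusted p = 0.0262), and KDM3A rose from 72.4, 65.3 and 67.3 to 84.3, 85.5 and 75.3 (log2FC 0.26 ± 0.07 SE, adjusted p = 0.0411). The groups did not overlap for these 4 genes, nor for PFKM, SLC16A3 and ADM, which were not called. The share of all tested genes without overlap was not computed at any time. Lack of overlap thus only describes the libraries and adds nothing to a call. Among libraries with a positive correlation to length, the level in PRT3789 was 0.514 times that in DMSO for SLC2A1, 0.779 for SLC2A3, 1.17 for KDM3A and 0.582 for EGLN3, and among those with a negative one it was 0.494, 0.759, 1.14 and 0.389. DMSO replicate 1 is the only DMSO library of the former set, and PRT3789 replicate 3 the only PRT3789 library of the latter. Each ratio thus has a single library on one side, no spread and no test. With the 6 h libraries fitted apart in edgeR, none of the 37 members then tested was called and 6 had an unadjusted p under 0.05, with adjusted p of 0.115 for SLC2A1, 0.495 for SLC2A3, 0.418 for KDM3A and 0.226 for EGLN3. The SLC2A3 call also ended without DMSO 6 h replicate 1 (adjusted p = 0.088) or PRT3789 6 h replicate 3 (0.127), and that of KDM3A without DMSO 6 h replicates 2 or 3 or PRT3789 6 h replicates 1 or 2 (0.0973 to 0.158). Scaling by total counts gave 2 higher and 2 lower.

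The effect of PRT3789 changed between 6 and 48 h for 16 of the 38 members, 8 upward and 8 downward, where 8.83% and 10.4% of all tested genes changed. With total counts, or with no filter on low counts, the split was 4 and 8, and fitted apart it was 3 and 7. It was 4 upward and 8 or 9 downward without DMSO 6 h replicate 1, PRT3789 6 h replicate 3, DMSO 48 h replicate 2 or any one of the PRT3789 48 h libraries, and 5 upward without DMSO 6 h replicate 2 or DMSO 48 h replicate 3. Calls that held under every alternative run on single genes were those of EPAS1, ADM and P4HA1 upward and of SLC2A1, PFKP, PKM, SLC16A3, VEGFA, NDRG1 and P4HA2 downward. Upward changes were largest for EPAS1, ADM (log2FC 1.64, adjusted p = 1.75e-06), ANKRD37 (1.41, 0.0194) and P4HA1 (0.81, 7.24e-06). Downward changes were largest for SLC2A1, NDRG1 (-1.09, 1.37e-05), PKM (-0.67, 0.00117) and P4HA2 (-0.60, 0.000157).

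In DMSO alone several of the same genes moved with time in culture. From 6 to 48 h, 12 of the 38 members rose and 7 fell, where 17.1% and 20.1% of all tested genes did (16 and 4 with total counts, which moved the median of all genes by 0.108 on the log2 scale). Risers were the glucose carriers SLC2A1 (log2FC 0.86) and SLC2A3 (0.97), HK2 (0.83), PFKL, PFKM, SLC16A3 (0.77), ADM (0.74), VEGFA (0.52), NDRG1 (0.61), BNIP3L, P4HA1 (0.44) and EPAS1 (1.00), and the fallers were TPI1, PGAM1, ENO1, LDHA (-0.37), LDHB (-0.44), KDM3A and P4HA2. Fitted apart, 9 rose and 1 fell, and without DMSO 48 h replicate 2 it was 12 and 4. Of the 7 fallers only LDHB held its call in all the alternatives run on single genes. These comparisons share the DMSO libraries of 6 and 48 h with the treatment comparisons, so their values stand side by side only. SLC2A1 went from 143 ± 24.7 to 260.4 ± 22.4 CPM under DMSO and from 80.2 ± 14.5 to 37.2 ± 2.3 under PRT3789 between 6 and 48 h (SD over 3 libraries), and EPAS1 from 113 ± 17.2 to 226 ± 16.5 and from 102 ± 16.2 to 937 ± 13.6. From 48 to 72 h no member was called in DMSO with all libraries in one edgeR fit, where 0.387% and 0.153% of all tested genes were higher and lower. In that fit 6 of the 38 members had an unadjusted p under 0.05, as did 3221 of all 16291 tested genes. DESeq2 and limma-voom each called 1 member (HK2, log2FC 0.56 and 0.59). HK2 was also called in edgeR fitted apart (adjusted p = 0.0275) and without DMSO 48 h replicate 1 (0.0172).

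Genes next to these in the pathways came from 9 further lists of 125 genes, of which 103 were tested. Of these, 29 were higher and 30 lower at 48 h and 24 and 35 at 72 h, with a median log2FC of 0.02 and -0.03. Over all tested genes 21.2% were higher and 20.9% lower at 48 h and 21.3% and 22.0% at 72 h, against 28.2% and 29.1% and 23.3% and 34.0% of these 103, and the counts of the single lists below stand beside the same shares. In the pentose phosphate pathway, which branches off glucose 6-phosphate, 5 of 7 genes fell and 1 rose at each time. TKT, transketolase, went from 234 to 117 CPM at 48 h and from 236 to 103 at 72 h (adjusted p 2.25e-09 and 2.03e-10). TALDO1, transaldolase, was at a log2FC of -0.78 and -0.71 (adjusted p 6.84e-08 and 1.77e-07). Of 13 genes of pyruvate entry into mitochondria, 6 fell and 2 rose at 48 h, then 7 and 2 at 72 h. Pyruvate carboxylase PC fell (-1.67 and -1.90) and the kinase PDK2 rose (0.65 and 0.77).

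Of 13 tested regulators of the HIF pathway, 6 rose at 48 h and 3 at 72 h, and the others did not pass the test. The 3 at 72 h are 23.1%, near the 21.3% of all tested genes. CITED2, which competes with HIF alpha subunits for the coactivators CBP and p300, rose from 314 to 825 CPM at 48 h and from 385 to 997 at 72 h (log2FC 1.39 and 1.37, adjusted p 1.7e-11 and 1.64e-11). CITED2 was already called higher at 6 h (log2FC 0.61, adjusted p = 8.36e-06), and in DMSO it went from 157 to 314 CPM between 6 and 48 h. SIAH1, a ubiquitin ligase that targets EGLN proteins, rose too (0.36 and 0.77). Of 33 further HIF targets, 7 were higher and 11 lower at 48 h and 5 and 15 at 72 h. Lower in PRT3789 than in DMSO were the collagen cross-linking enzyme LOXL2 (-1.97 and -2.60), the glycoprotein hormone STC2 (-1.56 and -1.04) and the growth factor binding protein IGFBP3 (-1.19 and -1.45). Between 6 and 48 h the mean of STC2 went from 24 to 62.5 CPM in DMSO and from 19.6 to 21.2 in PRT3789.

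Among 13 other glycolytic isozymes and regulators, 7 rose and 2 fell at 48 h, then 6 and 2 at 72 h. The neuronal enolase ENO2 fell like ENO1 (-0.94 and -1.23), and PFKFB2, a further fructose 2,6-bisphosphate enzyme, rose like PFKFB4 (1.10 and 1.06). Of 10 glycogen genes, 3 rose and 1 fell at 48 h, then 4 and 2 at 72 h, with glycogen phosphorylase PYGL at 0.53 and 0.28 and glycogen synthase GYS1 at -0.41 and -0.69. Of 6 other glucose carriers, 1 rose and 3 fell at 48 h, then 1 and 1 at 72 h. The risers were different genes at low levels, SLC2A4 at 48 h (0.592 to 1.24 CPM) and SLC5A2 at 72 h (0.0608 to 0.507 CPM). SLC2A12 was the faller at 72 h (-1.20 and -1.15), and was already called lower at 6 h (-0.97, adjusted p = 5.89e-07). Of 6 genes of the VEGF family and its receptors, 1 rose and 1 fell at 48 h, then 1 and 2 at 72 h: VEGFC rose (0.77 and 0.61) and its receptor FLT4 fell (-0.57 and -0.84). The 2 tested gluconeogenesis genes were split, with G6PC3 higher (0.34 and 0.43) and PCK2 lower (-0.61 and -0.22).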

How the data were processed

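Poly(A) RNA of NCI-H1693 cells was sequenced as stranded libraries with 150 bp paired reads, 3 libraries in each of 6 groups, per the labels' protocols. The authors deposited RSEM expected counts per gene symbol, which were already whole numbers. Per the submitters' processing notes, reads went through nf-core/rnaseq 3.17.0 with Trim Galore, STAR and RSEM on GRCh38. Genes were kept by filterByExpr, and the genes left out held at most 0.048% of the counts of a library. Scaling was by TMM (trimmed mean of M values), and the tests were two-sided robust quasi-likelihood F tests of edgeR 4.0.16 under R 4.3.3, with the 18 libraries in one fit that had a mean for each group. Benjamini-Hochberg adjustment ran over all 16291 genes of a comparison. The p at 6 h rests on a spread pooled over all times. Depth sets counting error only, as the reads have no molecular identifiers.

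Members and further lists were chosen with earlier results of these data known. Values by library are given for members that changed at least 2-fold, the members of each role with the smallest p at 48 and at 72 h, and the HIF subunits; values by library at 6 h of SLC2A3 and KDM3A, which that rule did not take, were added after the calls were seen. Further lists are named by their called genes with the smallest p. Gene positions are whole-gene spans, and lengths those of canonical transcripts, in the GENCODE annotation of GRCh38, which is not the authors' own annotation. The edgeR test at 48 h was checked on simulated counts. Those counts had independent libraries, few changed genes and no length trend, so the check does not cover such trends. Alternatives were other scaling, filters and thresholds, DESeq2 1.42.0, limma-voom (limma 3.58.1), a replicate block, removal of a length trend, comparisons fitted apart, and each library left out. One more, with the length direction of the 6 h libraries as a term, was chosen after seeing the data.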

Additional observations from a re-analysis of the deposited data

Results flagged for a closer look

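For 16 members the effect of PRT3789 at 48 h differed from that at 6 h by a test of the difference itself in edgeR. The differences in log2FC were 2.20 for EPAS1, 1.64 for ADM, 1.41 for ANKRD37, 0.81 for P4HA1, 0.72 for GPI, 0.42 for PFKL, 0.34 for SLC2A3 and 0.21 for PFKM. They were -1.97 for SLC2A1, -1.09 for NDRG1, -0.67 for PKM, -0.60 for P4HA2, -0.57 for PFKP, -0.52 for SLC16A3, -0.44 for ENO1 and -0.44 for VEGFA. PFKM was not called at either time on its own (log2FC -0.11 and 0.10). The calls of GPI, PFKL, SLC2A3, PFKM, ANKRD37 and ENO1 ended under at least one alternative, and without DMSO 6 h replicate 1 the difference was 0.46 for GPI and 0.27 for PFKL. The 6 and 48 h libraries in these differences carry the length trends described above. The part of these trends in the differences was not tested beyond the alternatives below.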

How the results depend on the processing

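No member called in a comparison changed its direction under any alternative run. With the length trend removed, 12 members were called higher and 11 lower at 48 h. Of 23 calls at 48 h, 19 held under every alternative run on single genes, as did 22 of 26 at 72 h, 0 of 4 at 6 h, 10 of 16 for the change from 6 to 48 h and 10 of 19 for DMSO from 6 to 48 h. Members without a call that gained one under at least one alternative were HK1, PFKM, PGAM1, CA12, BNIP3L and ARNT at 48 h and HK2, GPI, PFKM, ALDOA and SLC16A1 at 72 h. At 6 h they were SLC16A3, ADM and BNIP3. Only with the length direction as a term, HK1, SLC16A1, HIF1A (log2FC -0.23, adjusted p = 0.0439) and EPAS1 (-0.26, adjusted p = 0.021) were also called lower at 6 h. Counts of called members moved by more than 1.5 times as follows, and the cause was not tested. At 6 h the count went from 4 to 2 at an adjusted p under 0.01, to 0 fitted apart and to 10 with the length direction as a term. For the change from 6 to 48 h it went from 16 to 9 at an adjusted p under 0.01 and to 10 fitted apart, and for the change from 48 to 72 h from 0 to 2 fitted apart (SLC2A3 and ADM). For DMSO from 6 to 48 h it went from 19 to 10 fitted apart. For DMSO from 48 to 72 h it went from 0 to 1 in DESeq2, in limma-voom and fitted apart (HK2), to 4 with the length trend removed (SLC2A3, HK2, TPI1 and ADM), and lay between 0 and 1 with single libraries left out, with 1 (HK2) without DMSO 48 h replicate 1. Where leaving out 1 library left 2 in a group, the fit pooled the spread over groups.

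Same-numbered libraries of one time had correlations of their deviations between -0.237 and 0.338, and 5 of 18 libraries correlated best with their own number, so the numbers were not used as pairs. A replicate block gave 4 called members at 6 h, 24 at 48 h, 27 at 72 h, 17 for the change from 6 to 48 h, 0 for that from 48 to 72 h, and 20 and 0 for DMSO over time. With the block, calls were gained for ARNT at 48 h (adjusted p = 0.0275), SLC16A1 at 72 h (0.0136), HIF1A (0.00988) and CA12 (0.042) in the change from 6 to 48 h and SLC16A1 in DMSO from 6 to 48 h (0.0314), the call of PFKM in the change from 6 to 48 h ended (0.0917), and no other call changed. Depth limits mainly CA9, CA12, ALDOC, EGLN3 and ANKRD37, which have the lowest counts.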
